A study of Mus musculus with 24 samples.

Results

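Interferon-stimulated genes and the interferon regulatory factors (IRFs) were followed in brain microvessels of mice after transient middle cerebral artery occlusion (tMCAO), a filament model of ischemic stroke, or sham surgery. The genes were chosen by their symbols (guanylate-binding proteins, IFIT, IFITM, IFI200, IRG, OAS and ISG genes, IRF and STAT genes, Mx1, Apol9 and 10 single genes), by a protein-coding biotype and by a mean above 5 normalized counts over all 24 libraries. Of 75 protein-coding genes that matched, 72 passed, out of 15982 genes that passed the same minimum and 17270 genes in all. Ifitm5, Gbp10 and Ifi205 lay below the minimum with means of 4.29, 2.79 and 2.54, and Ifi213 and Ifi206 lay nearest above it with 7.5 and 8.96. No member passed only through the group in which it was highest. Mx2, Oas1b, Ifi30 and Ifi203-ps match the symbols but carry another biotype and were left out.

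All mice were male C57BL/6J aged 10 to 12 weeks. In the stroke groups the right middle cerebral artery was occluded for 60 min and then reperfused, and in the sham groups the filament was withdrawn as soon as it reached the artery's branching point. Ipsilateral and contralateral hemispheres were collected 24 h or 7 days later from perfused mice, which gave 8 groups of 3 libraries. Each library holds microvessels from 3 pooled hemispheres, so that a group stands for 9 animals, and stroke size was not measured in these animals. The 24 h and 7 days groups were different mice, so time after surgery and any difference between the 2 cohorts cannot be told apart.

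Interferons are cytokines that signal through paired receptors and the JAK kinases to STAT factors, which with IRF9 bind an interferon-stimulated response element (ISRE) in target promoters; interferon-γ acts mainly through a gamma-activated site (GAS). The induced genes code for proteins that restrict viruses and intracellular microbes, for nucleic acid sensors and for the IRFs that amplify the response. Brain endothelial cells, microglia and infiltrating leukocytes can all respond to interferon.

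Before the levels, the promoters of the members are shown. The symbols were chosen as those of interferon-stimulated genes and IRFs, so a high share of interferon motifs among them is no independent finding. RefSeq promoter windows (GRCm38.p6, 250 bases before to 50 after the start site) were at hand for 57 of the 72 members. The ISRE core, GAAA, any 2 bases and GAAA again, read on either strand, occurred in a window of 35 of these 57 genes (61.4%), against 3.99% of all 27025 genes with a window. The GAS motif TTCNNNGAA, which is its own reverse complement, occurred in 17 of the 57 (29.8%), against 9.55% of all genes. Both motifs stood together in 17.5% of members and in 0.614% of all genes. The 2 motifs can overlap, and a match is a description of letters, not a bound site. Copies with the same stretch around the core, such as Ifit3 and Ifit3b or Apol9a and Apol9b, count as separate genes.

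The stretches below are from members of the later results that hold a motif before the start site. Some members with large changes are therefore not shown. Ifi209, Ifitm1 and Ifitm10 held neither motif in their windows. Ifitm6 held a GAS but no ISRE core, and both ISRE cores of Ifitm3 lay after the start site. The capitals mark the ISRE core, and in Samhd1, which held no ISRE core in its window, they mark the GAS.
Tgtp2: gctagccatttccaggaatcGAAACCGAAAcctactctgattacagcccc
Tgtp1: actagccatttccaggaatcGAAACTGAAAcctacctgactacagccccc
Igtp: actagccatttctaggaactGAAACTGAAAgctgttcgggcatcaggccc
Irgm2: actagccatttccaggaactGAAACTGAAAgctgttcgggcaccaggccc
Gbp3: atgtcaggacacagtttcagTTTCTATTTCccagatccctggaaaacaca
Gbp2: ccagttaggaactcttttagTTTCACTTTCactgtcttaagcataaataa
Apol9b: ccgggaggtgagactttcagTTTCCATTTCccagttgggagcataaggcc
Isg15: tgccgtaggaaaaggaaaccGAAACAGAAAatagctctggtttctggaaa
Bst2: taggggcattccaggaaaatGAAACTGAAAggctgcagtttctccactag
Ifi207: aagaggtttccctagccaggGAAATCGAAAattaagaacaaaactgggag
Ifi211: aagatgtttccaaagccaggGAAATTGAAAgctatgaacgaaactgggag
Ifi206: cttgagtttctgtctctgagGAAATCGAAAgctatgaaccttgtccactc
Oas3: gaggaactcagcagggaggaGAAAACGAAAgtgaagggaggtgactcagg
Samhd1: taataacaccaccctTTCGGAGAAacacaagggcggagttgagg
In the 4 immunity-related GTPase promoters at the top, Tgtp2 (chr11:49064253-49064302, minus strand), Tgtp1 (chr11:48992294-48992343, minus strand), Igtp (chr11:58199502-58199551, plus strand) and Irgm2 (chr11:58214893-58214942, plus strand), the lower-case run just before the ISRE core also holds a GAS. The run before the core of Bst2, which is not an IRG gene, holds a GAS as well. Both motifs stood in the window of 4 of the 6 IRG genes (66.7%). They also did in 2 of 4 guanylate-binding protein genes, Gbp5 and Gbp7, but there the GAS did not lie directly before the core. In the IFI200 genes 5 of 6 held an ISRE core and none a GAS, and the core lay within 73 bases of the start site in all 5, as it does in Ifi207 (chr1:173741821-173741870, minus strand). Of the 9 IRF and STAT genes with a window only Irf2 and Stat2 held an ISRE core.

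**Figure D1:**
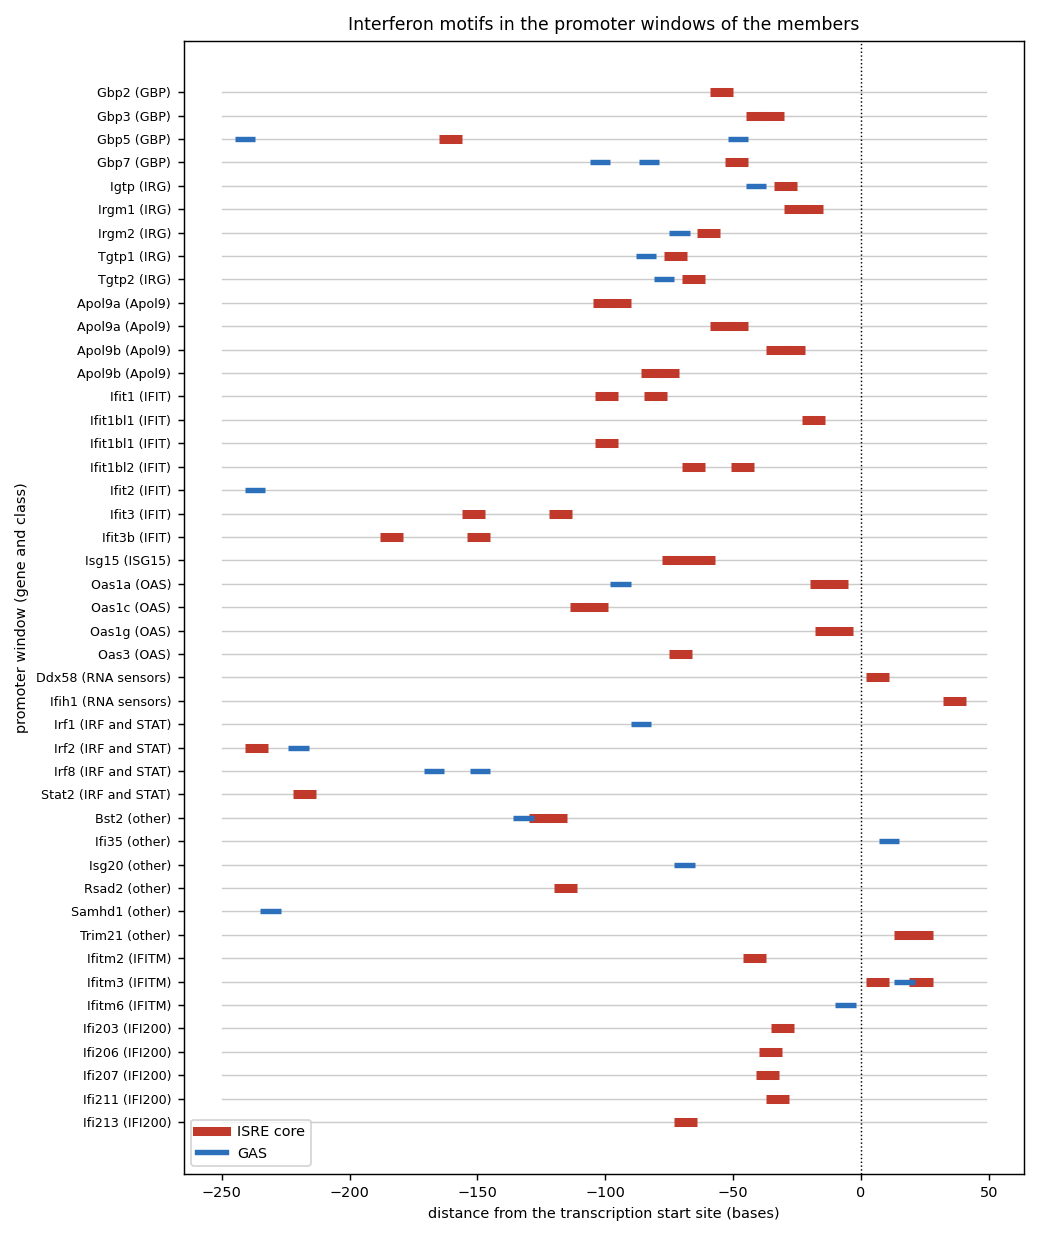
Positions of the ISRE core (red) and GAS (blue) in the promoter windows that hold either motif, 1 row a window, in bases from the transcription start site at 0; genes with several start sites have several rows. The cores of the IFI200 genes and of most GBP and IRG genes lie close before the start, whereas those of Irf2 and Stat2 lie more than 200 bases upstream.

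Many members are clustered copies of each other, which bears on how well reads can be assigned to one of them. All 7 IFI200 members lie on chromosome 1, all 7 OAS members on chromosome 5, all 6 IFIT members on chromosome 19, all 5 IFITM members on chromosome 7, and 6 of 7 IRG members on chromosome 11 (mm10). The authors counted only reads that map to 1 place. Over the GENCODE M21 transcripts, 86.6% of the 50-base words of Tgtp2 and 81.2% of those of Tgtp1 also occur in another gene, and the share was 72.8% for Ifi211, 70.7% for Gbp6, 57.6% for Oas1a, 52.3% for Apol9b, 51.2% for Ifit3, 48.5% for Ifitm2 and 33.7% for Ifi209. The levels of these copies relative to each other are therefore uncertain.

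The deposited values are counts that the authors normalized with DESeq2, and their total per library ran from 15924780 to 18787932. Per kilobase of exon, Ifitm3, an antiviral membrane protein, was by far the most abundant member, at a mean of 15830 normalized counts, followed by Ifitm2 at 2429 and Bst2 (tetherin, which holds budding viruses at the membrane) at 1739. Mean normalized counts of the members, not scaled by length, ran from 7.5 to 10733 with a median of 660. The 6 endothelial markers summed to 139874 or more in every library, against at most 12745 for 6 monocyte and macrophage markers and 5524 for 6 neutrophil markers. Tests below are limma tests on log2(normalized count + 1) over all 15982 genes and 24 libraries. A gene was called higher or lower at a Benjamini-Hochberg adjusted p under 0.05 and a log2 fold change beyond 0.585, that is 1.5-fold. Fold changes carry standard errors (SE), and n is 3 libraries a group throughout. In whole microvessels, fewer cells of a type and less RNA per cell cannot be told apart.

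**Figure D2:**
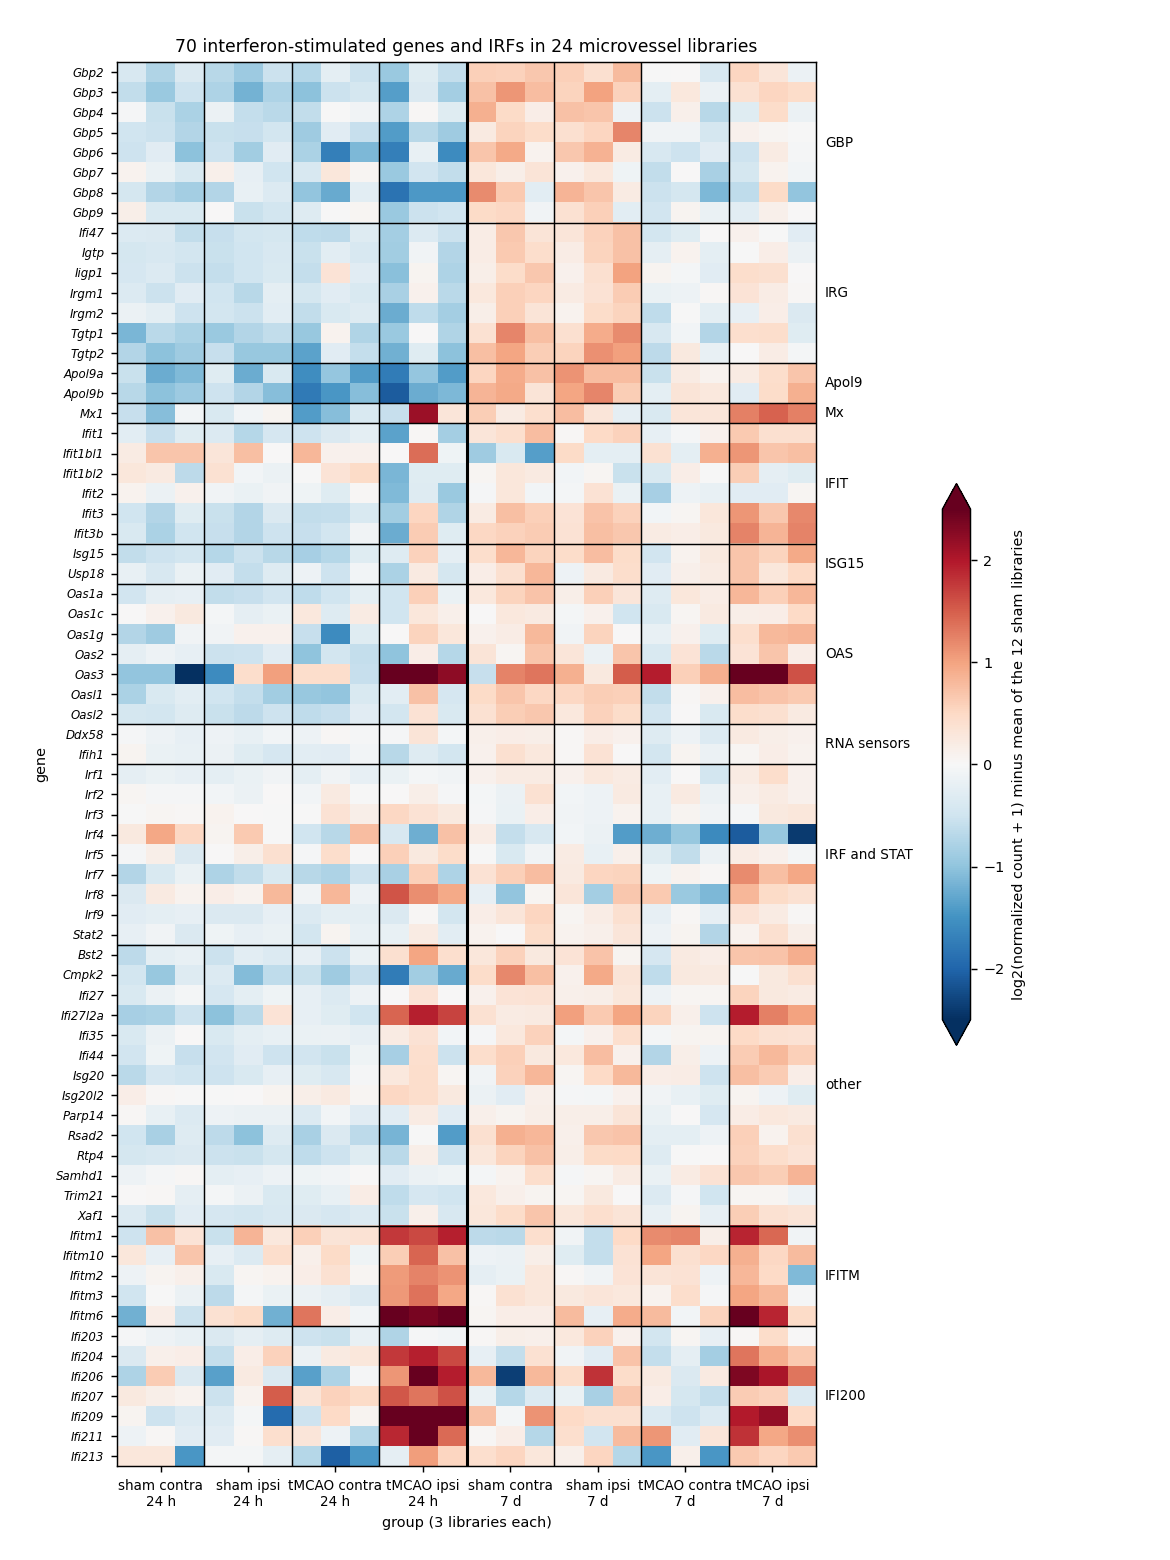
Log2(normalized count + 1) of the members in each of the 24 libraries, minus the mean of the 12 sham libraries, by gene class; colours are clipped at 2.5 in either direction. IFITM and IFI200 genes stand out in the ipsilateral stroke libraries at 24 h, and GBP, IRG and Apol9 genes are higher in the sham libraries of 7 days than in those of 24 h.

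The first question was which members changed in ipsilateral microvessels 24 h post-stroke. Compared with sham ipsilateral, 16 of 72 members rose and 3 fell. Over all genes 10.0% were called higher and 8.23% lower, so the members' 22.2% higher lay above the background and their 4.17% lower below it. The increase was divided by class. All 5 IFITM genes and 5 of 7 IFI200 genes rose, with median log2 fold changes of 1.42 and 1.74. None of the 6 IFIT, 8 GBP, 7 IRG or 2 Apol9 genes rose, and their medians were -0.08, -0.39, -0.07 and -0.72. The median over all members was 0.11 and over all tested genes -0.02.

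Among the IFITM genes, which block the entry of enveloped viruses, Ifitm3 read 5574, 8442 and 7789 normalized counts in sham ipsilateral and 18406, 22321 and 17084 in stroke ipsilateral libraries. The 3 stroke libraries all lay above the sham libraries, and the log2 fold change was 1.42 (SE 0.21, adjusted p = 6.92e-05). Ifitm6 went from 14, 15 and 4 to 149, 59 and 88 (3.13, SE 0.56, adjusted p = 0.00039), the steepest rise of the class. Ifitm1 read 637, 1684 and 1132 in sham and 3196, 2938 and 3599 in stroke libraries (1.60, SE 0.46). Ifitm2 (1.22, SE 0.31) and Ifitm10 (0.96, SE 0.27) rose less, also without overlap between the groups.

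The IFI200 genes code for PYHIN proteins, several of which are sensors of DNA. Ifi209 showed the largest log2 fold change of all members, from 8, 10 and 2 normalized counts in sham to 92, 101 and 82 in stroke libraries (3.79, SE 0.45, adjusted p = 7.04e-06). Ifi204, a DNA sensor of myeloid cells, went from 36, 62 and 83 to 191, 215 and 175 (1.74, SE 0.31, adjusted p = 0.000387). The lowest stroke library held more than double the highest sham library. Ifi206 read 1, 5 and 3 in sham and 10, 43 and 19 in stroke libraries (2.55, SE 0.72), so its rise rests on few counts. Ifi211 (7, 9 and 12 against 35, 56 and 25) rose by 1.89 (SE 0.41). Ifi207 rose by 1.13 (SE 0.40, adjusted p = 0.0377), but 1 sham library, at 225, lay inside the stroke range of 198 to 236. Ifi203, the class's most abundant member, differed by 0.02 (SE 0.18), with stroke libraries at 132, 219 and 212 against 174, 191 and 178.

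Outside these classes, Ifi27l2a (also known as Isg12), a small mitochondrial membrane protein, rose from 67, 86 and 176 to 380, 534 and 448 (2.15, SE 0.30, adjusted p = 3.37e-05). Oas3, an oligoadenylate synthetase that activates the antiviral RNase L, read 1, 7 and 11 in sham and 35, 58 and 27 in stroke libraries (2.76, SE 0.67). Bst2 rose from 934, 1137 and 1076 to 1800, 2695 and 1820 (0.98, SE 0.19, adjusted p = 0.000882). The smallest rises that passed were those of Isg15, the ubiquitin-like modifier (549, 623 and 558 against 723, 1334 and 765; 0.65, SE 0.21), Oasl1 (0.68, SE 0.24) and the exonuclease Isg20 (0.62, SE 0.23, adjusted p = 0.0487). For Isg15 and Oasl1, ipsilateral stroke library 2 was clearly the highest. These 3 calls were lost without it, without sham ipsilateral library 1 or 3 and with median centring, and that of Isg20 also with quantile normalization.

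Among the members that fell were Gbp8, from 12, 18 and 16 to 5, 7 and 7 (-1.15, SE 0.39, adjusted p = 0.0308), and Ifit2, from 546, 516 and 541 to 268, 461 and 304 (-0.67, SE 0.20, adjusted p = 0.0144). Ifit2 belongs to the IFIT proteins, which bind viral RNA and restrain translation. The most abundant IFIT gene, Ifit1, read 850, 653 and 805 in sham and 422, 1088 and 596 in stroke libraries (-0.24, SE 0.23), with stroke library 2 above and both others below the sham range. Mx1, a dynamin-like antiviral GTPase, showed 6, 45 and 12 against 7, 9 and 10.

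**Figure D3:**
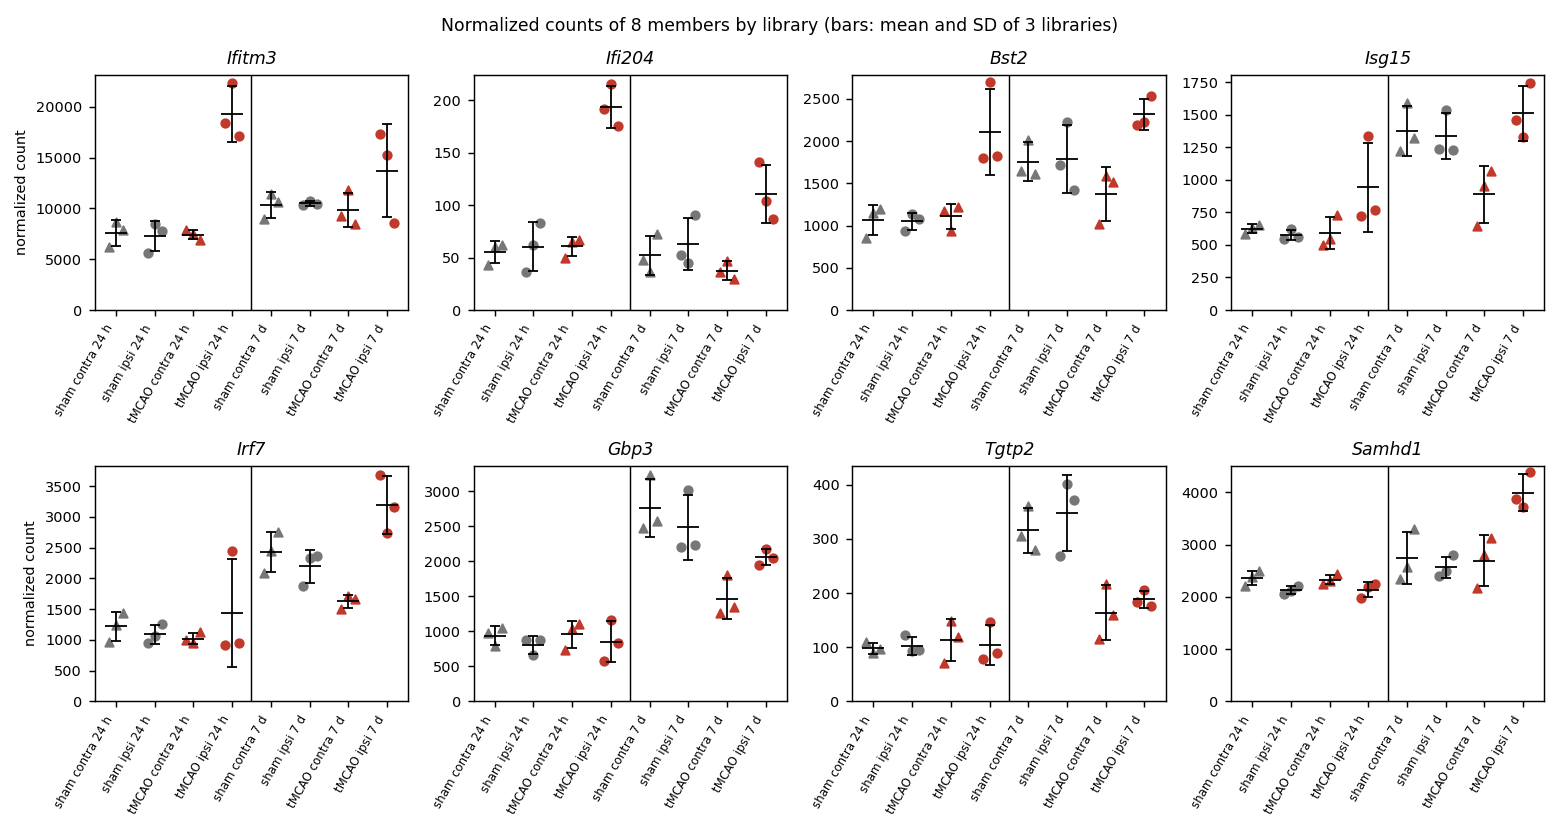
Normalized counts of 8 members in every library (grey, sham; red, tMCAO; triangles, contralateral; circles, ipsilateral; bars, mean and SD of 3 libraries), each panel with its own linear axis from 0. Ifitm3, Ifi204 and Bst2 are raised in all 3 ipsilateral stroke libraries at 24 h, and Irf7 in only 1 of them. Gbp3 and Tgtp2 are higher at 7 days than at 24 h without overlap, in sham libraries and in ipsilateral stroke libraries.

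Library 2 of the ipsilateral stroke group at 24 h stood apart for this set of genes. It was the highest of the 3 in 58 of 72 members (80.6%), against 35.8% of all tested genes, and the mean of all members relative to the 12 sham libraries was 0.39 in it and -0.23 and -0.04 in libraries 1 and 3. Irf7 (920, 2451 and 942) and Ifit3 (489, 1296 and 529) show it most plainly. For the IFITM genes the 3 libraries lay close together: the mean log2 difference of the IFITM genes from the sham libraries was 1.64, 1.61 and 1.54 in libraries 1 to 3. Without library 2, 10 members were called higher and 5 lower, and without sham ipsilateral library 1, 9 were called higher. Without stroke library 1, 17 were called higher and none lower.

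Leukocyte markers moved with the same groups. The 6 neutrophil markers summed to 2398 to 5524 in ipsilateral stroke libraries at 24 h and to 175 to 1041 in sham ipsilateral libraries. The 6 monocyte and macrophage markers summed to 6391 to 12745 against 4091 to 6131, and the 6 T and NK cell markers to 64 to 96 against 22 to 44. The monocyte and macrophage sum is mostly Lyz2: Ccr2 (612, 417 and 686 against 65, 108 and 100) and Ly6c2 were also higher without overlap, whereas Cd163 (539, 387 and 941 against 609, 877 and 881), Mrc1 and Ms4a7 overlapped. Of the defining markers, the neutrophil gene Ly6g read 20, 21 and 9 against 0, 2 and 3, and Lyz2 of myeloid cells 6708, 4230 and 7890 against 2115, 2979 and 3347. In library 2, which was highest for most members, Lyz2 was the lowest of the 3. The 6 pericyte and mural cell markers summed to less, 56864 to 96520 in stroke and 102351 to 110641 in sham libraries. Within this list Rgs5 (32086, 29464 and 39499 against 53366, 55625 and 58866) and Myh11 were lower without overlap, whereas the pericyte genes Pdgfrb (10345, 7311 and 10890 against 7317, 10949 and 8284) and Kcnj8 overlapped. The part of these cells in the members' changes was not tested.

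**Figure D4:**
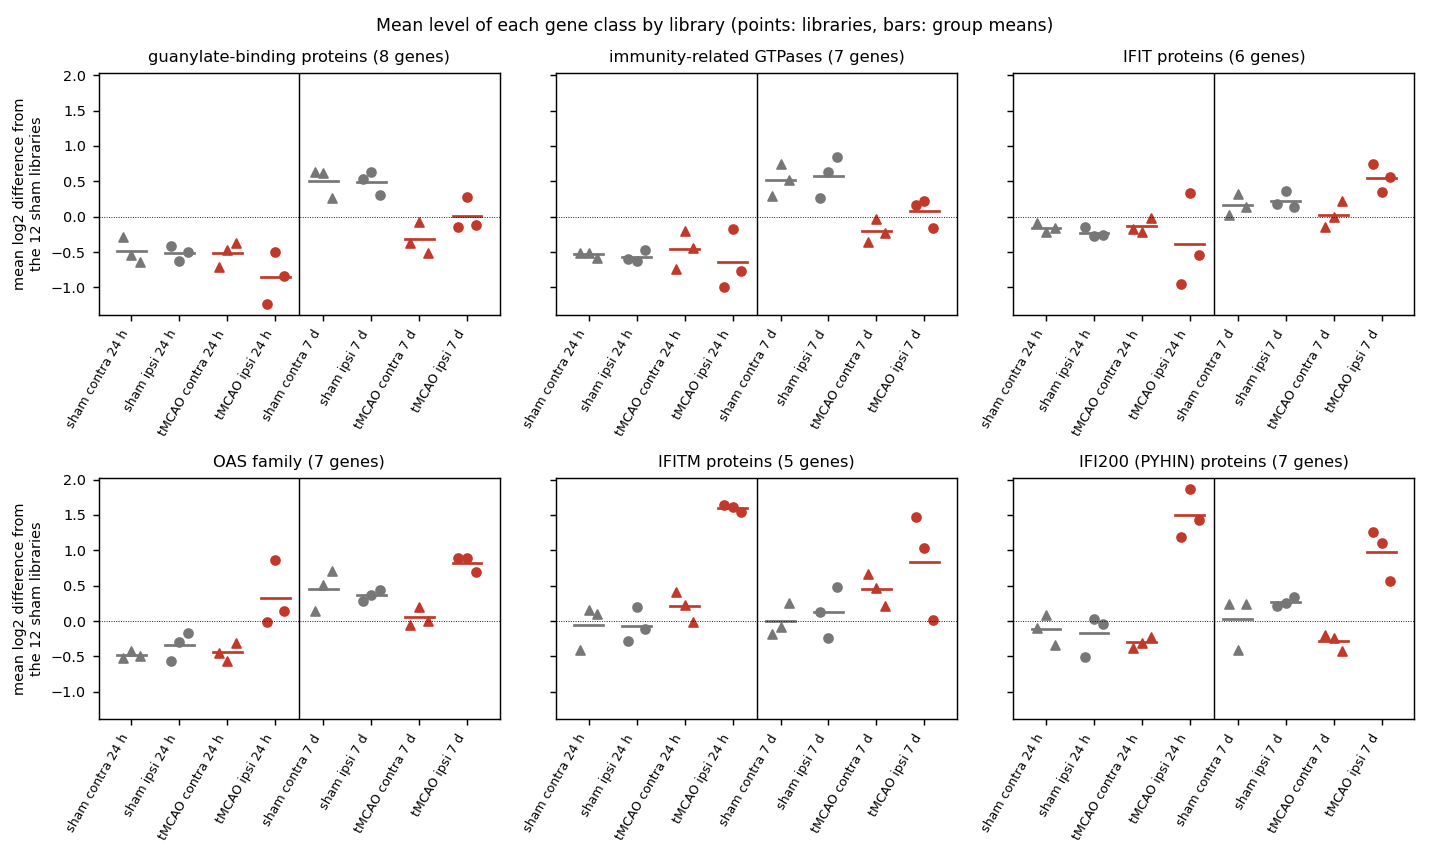
Mean log2 difference from the 12 sham libraries over the genes of 6 classes, 1 point a library (grey, sham; red, tMCAO; triangles, contralateral; circles, ipsilateral; bars, group means). IFITM and IFI200 genes peak in ipsilateral stroke libraries at 24 h, whereas GBP and IRG genes are highest in the sham libraries of 7 days. In the ipsilateral stroke group at 24 h, library 2 lies above the others for GBP, IRG, IFIT, OAS and IFI200 genes.

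The comparison of both hemispheres of the stroke mice at 24 h does not use sham libraries but shares the ipsilateral stroke libraries with the one above. Of 72 members 17 were called higher (8.52% of all genes) and 2 lower (5.14% of all genes) ipsilaterally. Again all 5 IFITM genes were among them, from 0.77 (Ifitm10, SE 0.27) to 2.53 (Ifitm6, SE 0.56). Contralateral Ifitm3 read 7850, 7454 and 6921. Mx1 (1.57, SE 0.48) and Oas1g (1.10, SE 0.32) were called here, with contralateral libraries at 3, 4 and 7 for Mx1 and 9, 4 and 11 for Oas1g. Ifit2 (-0.66, SE 0.20) and Gbp7 (-0.65, SE 0.21) were lower. Without ipsilateral library 2, 8 members were called higher and 6 lower, and without contralateral library 1, 11 were called higher. The count of lower members was 1 without contralateral library 2 and 0 without contralateral library 3 or ipsilateral library 1.

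At 7 days post-stroke fewer members differed from sham. Only 2 of 72 members were higher (3.27% of all genes) and 3 lower (9.95% of all genes) in stroke than in sham ipsilateral microvessels. Samhd1, a dNTPase that limits reverse transcription, read 2393, 2505 and 2795 in sham and 3870, 3718 and 4390 in stroke libraries, without overlap (0.64, SE 0.12, adjusted p = 0.00109). Ifitm10 read 182, 150 and 291 against 420, 325 and 390 (0.91, SE 0.27, adjusted p = 0.026).

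The members that were lower at 7 days were the IRG genes Tgtp2 and Ifi47, whose products act at vacuoles of intracellular microbes, and Gbp5. Tgtp2 read 269, 402 and 372 in sham and 183, 206 and 176 in stroke libraries (-0.86, SE 0.26, adjusted p = 0.0272). Gbp5 read 1916, 2112 and 3413 against 1573, 1517 and 1453 (-0.66, SE 0.19), and Ifi47 1194, 1439 and 1611 against 1050, 963 and 798 (-0.59, SE 0.16). All 8 GBP genes had a negative fold change, from -0.96 to -0.23, although only Gbp5 passed. The IFITM and IFI200 medians were 0.91 and 0.85, with 1 of 5 and 0 of 7 called.

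Single libraries decided much of this count. Without sham ipsilateral library 1 or 2 or stroke library 1, 1 member was called higher, and without stroke library 3, 4 were. Of the lower members 5 were called without sham library 1, 1 without sham library 2 or 3, 6 without stroke library 2 and none without stroke library 3. Stroke library 3 was low for Ifitm3 (17298, 15265 and 8571 in the 3 libraries), Ifitm1 (3531, 2551 and 879) and Ifi209 (44, 51 and 15). In the same library Lyz2 (5573, 4959 and 2658) and the neutrophil gene S100a8 (1271, 756 and 142) were low, a relation that was not tested. The calls of Tgtp2, Ifi47, Gbp5, Samhd1 and Ifitm10 were each lost without this library. Other marker sums differed between stroke and sham ipsilateral libraries at 7 days without overlap. Microglial markers summed to 2839 to 3003 against 1578 to 2357 and proliferation markers to 249 to 299 against 46 to 58. Neuronal markers summed to 355 to 639 against 3112 to 5094, and pericyte and mural markers to 71345 to 99075 against 115928 to 120656. Within the pericyte and mural list only Rgs5 was lower without overlap (43041, 49349 and 45318 against 53351, 66958 and 75658). Pdgfrb, Kcnj8, Abcc9, Acta2 and Myh11 overlapped. The part of these cells in the members' values was not tested.

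**Figure D5:**
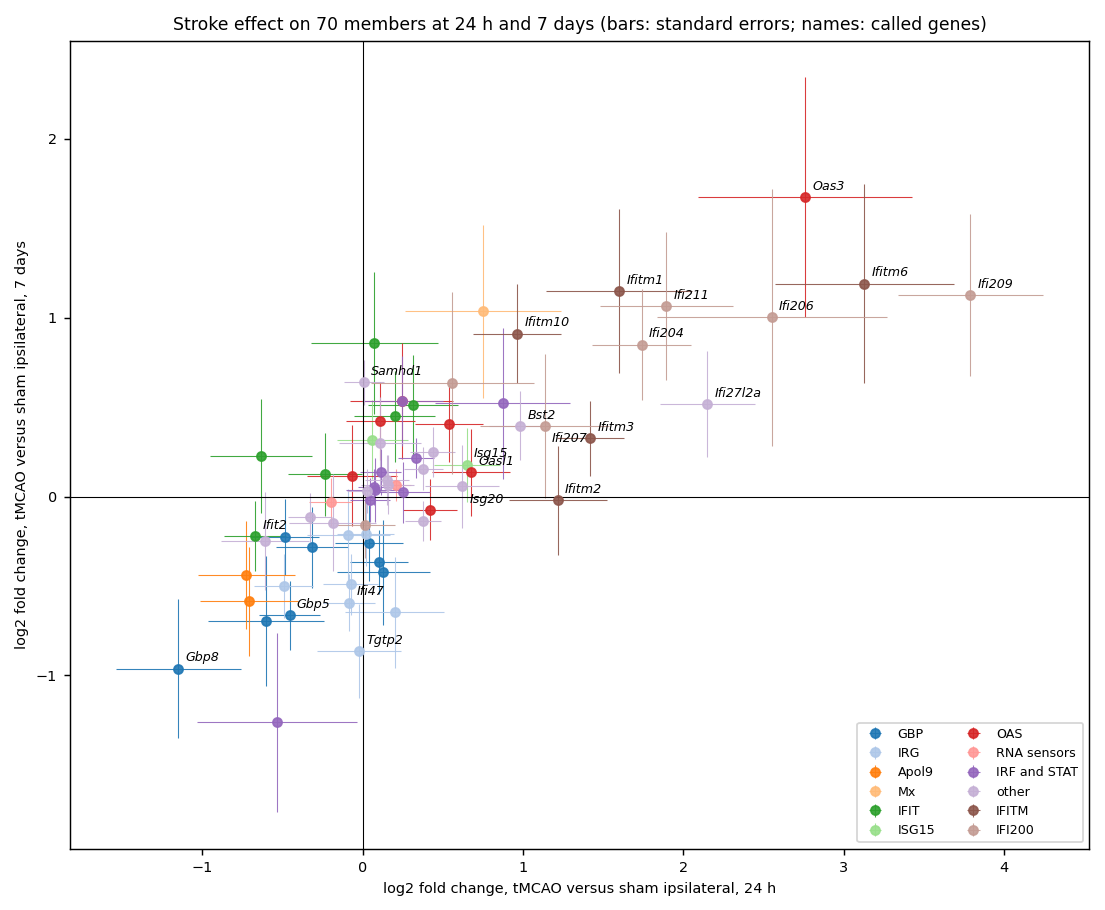
Log2 fold changes of tMCAO versus sham ipsilateral microvessels at 24 h (x axis) and 7 days (y axis) for the members, coloured by class, with standard errors; names mark members called at either time. The 24 h and 7 days values use different libraries. IFITM and IFI200 genes extend to 3.79 at 24 h but to no more than 1.19 at 7 days, and GBP, IRG and Apol9 genes lie mostly below 0 at 7 days.

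Whether the stroke effect differed between the times was tested directly, as the effect at 7 days minus that at 24 h. Of 72 members 3 had a smaller effect at 7 days (5.68% of all genes) and 1 a larger one (2.43% of all genes). The difference was -2.66 (SE 0.64, adjusted p = 0.0119) for Ifi209, -1.63 (SE 0.42, adjusted p = 0.018) for Ifi27l2a and -1.09 (SE 0.30, adjusted p = 0.0242) for Ifitm3. Samhd1 was the member with a larger effect at 7 days, by 0.63 (SE 0.17, adjusted p = 0.0267). For the other IFITM and IFI200 genes the difference did not pass. The count of smaller effects was 1 without sham 24 h library 1, stroke 24 h library 2 or stroke 7 days library 3, and 5 without stroke 7 days library 1, all ipsilateral. The call of Samhd1, the 1 larger effect, was lost without sham 24 h library 1 or 3, sham 7 days library 1, stroke 24 h library 1 or stroke 7 days library 3, and 2 members were called without stroke 24 h library 2.

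The sham mice themselves differed between the times. Ipsilaterally 16 of 72 members were higher at 7 days than at 24 h after sham surgery, against 0.300% of all genes, and no member was lower (0.175% of all genes). The 16 are a large share of the 48 genes called higher in all. Contralaterally 16 of 72 were again higher (0.232% of all genes, 37 genes in all) and none lower (0.100% of all genes). Both comparisons called 14 of the same members, and 30 of all tested genes were called in both. Since hemispheres were taken from both sides of the operated brains, the comparisons are not independent. The median over the members was 0.62 ipsilaterally and 0.68 contralaterally, while that over all tested genes was below 0.01 in size.

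The genes that differed between the sham times were mostly of other classes than those that rose after stroke, apart from Isg15, Oasl1 and Ifi27l2a. All 8 GBP and all 7 IRG genes had a positive fold change in both hemispheres, and 3 GBP, 5 IRG and both Apol9 genes were called in each. No IFITM, IFI200, IFIT, IRF or STAT gene was called. Gbp3 read 880, 663 and 871 in the ipsilateral sham libraries of 24 h and 2204, 3023 and 2240 in those of 7 days (1.62, SE 0.21, adjusted p = 0.00103). In contralateral libraries it read 980, 784 and 1044 against 2470, 3231 and 2570 (1.56, SE 0.21). Gbp3 belongs to the large GTPases that coat and break open vacuoles around microbes. Tgtp2 went from 122, 93 and 94 to 269, 402 and 372 ipsilaterally (1.74, SE 0.26) and from 109, 89 and 97 to 306, 361 and 280 contralaterally (1.67, SE 0.26).

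Gbp2, the most abundant GBP gene, rose from 1358, 1175 and 1525 to 3337, 2922 and 3807 ipsilaterally (1.31, SE 0.18), and by 1.12 (SE 0.18) contralaterally, and Gbp5 rose by 1.25 (SE 0.19) ipsilaterally. Apol9b, an interferon-induced apolipoprotein L, went from 37, 32 and 25 to 107, 126 and 83 (1.71, SE 0.30) and Apol9a from 18, 9 and 17 to 50, 39 and 39 (1.53, SE 0.30). Both lay without overlap between the times in either hemisphere. Ipsilateral Isg15 read 549, 623 and 558 at 24 h and 1239, 1536 and 1229 at 7 days (1.20, SE 0.21, adjusted p = 0.00805). Tgtp1, Igtp, Irgm1, Ifi47, Oasl2, Rtp4 and Xaf1 were called in both hemispheres, with log2 fold changes from 0.77 to 1.65. Ifi27l2a and Oasl1 were called ipsilaterally alone, and Rsad2 (viperin) and Cmpk2, neighbours on chromosome 12, contralaterally alone; the difference between hemispheres was not tested for them.

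Taking both hemispheres, 38 of 72 members had all 6 sham libraries of 7 days above all 6 of 24 h, against 3.20% of all tested genes, and no member had the reverse. The 38 include all 7 IRG genes, both ISG15 system genes (Isg15 and Usp18, which removes Isg15 from proteins), and Irf1, Irf7, Irf9 and Stat2. The numbers called depended on single libraries. Ipsilaterally 8, 9, 5 and 10 members were called without sham 24 h library 1, 24 h library 2, 7 days library 2 and 7 days library 3. Contralaterally 5, 2, 4 and 1 were called without 24 h library 1, 24 h library 2, 24 h library 3 and 7 days library 2. Monocyte and macrophage markers summed to 4091 to 6131 at 24 h and 4021 to 6117 at 7 days in the ipsilateral sham libraries, whereas endothelial markers summed to 157483 to 186686 and to 188347 to 197471 without overlap. Of the 6 endothelial genes only Cldn5 was higher there without overlap (50190, 47515 and 43185 against 62489, 61177 and 51537). Pecam1, Cdh5, Tek, Flt1 and Kdr each overlapped. Contralaterally the endothelial sums were 171767 to 190154 at 24 h and 201735 to 208564 at 7 days, again without overlap. There Cldn5 and Cdh5 were higher without overlap, and Pecam1, Tek, Flt1 and Kdr overlapped. T and NK cell markers summed to 22 to 44 and 38 to 89 ipsilaterally and to 18 to 30 and 26 to 82 contralaterally. The part of these cells in the sham difference was not tested.

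The contralateral hemispheres allow stroke and sham mice of one time to be compared outside the lesion. At 7 days no member was called between stroke and sham contralateral (0.0313% of all genes were called in either direction), with a lowest adjusted p of 0.0916 among the members by limma. However, 63 of 72 members had a negative fold change, whereas 51.7% of all tested genes had a positive one. By limma 42 members had an unadjusted p under 0.05 (39 of them lower). Over all tested genes the share was 10.3%, and 3.77% for lower genes. In 39 members all 3 stroke libraries lay below all 3 sham libraries, against 4.76% of all tested genes. The median was -0.46 over the members and 0.008 over all tested genes. The 39 include 7 of 8 GBP and all 7 IRG genes. Gbp3 read 1256, 1804 and 1342 in stroke and 2470, 3231 and 2570 in sham contralateral libraries (-0.92, SE 0.21, adjusted p = 0.167), and Oasl2 893, 1256 and 949 against 1609, 1908 and 1981 (-0.84, SE 0.17, adjusted p = 0.0916). Without stroke contralateral library 2, 1 member was called lower. Some marker sums were lower in the same stroke libraries without overlap, with 162705 to 183689 against 201735 to 208564 for endothelial cells. Monocyte and macrophage sums were 3062 to 3481 against 3537 to 4840, and T and NK cell sums 23 to 24 against 26 to 82. The sums of the other marker lists overlapped. Their stroke medians were higher for some (neutrophils, 901 against 182) and lower for others (microglia, 1715 against 1876). Taken singly, each of the 6 endothelial genes overlapped, as did Cldn5 (43561, 47962 and 61260 against 66619, 74690 and 59647). The part of these cells in the members' values was not tested.

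At 24 h the contralateral hemispheres of stroke and sham mice did not differ in any member called (0% of all genes called). By limma 2 of 72 members had an unadjusted p under 0.05, against 2.53% of all tested genes. Neither did sham ipsilateral and contralateral differ in any called member at 24 h or 7 days (0% of all genes at either time). There 1 and 2 members had an unadjusted p under 0.05 by limma, against 2.3% and 2.25% of all tested genes. Between 7 days and 24 h no member was called in contralateral stroke microvessels (0% of all genes). By limma 21 members had an unadjusted p under 0.05, against 16.5% of all tested genes. The median was 0.22 over the members and 0.0006 over all tested genes. Apol9b there read 15, 19 and 25 at 24 h and 45, 67 and 65 at 7 days (1.54, SE 0.30, adjusted p = 0.107).

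The hemispheres of the stroke mice were also compared at 7 days. Of 72 members 13 were called higher (3.03% of all genes) and none lower (9.98% of all genes). A positive fold change was seen in 69 members, against 54% of all tested genes. Both comparisons at 7 days use the same ipsilateral stroke libraries, and in the contralateral reference 39 members lay below the sham range, as described above. The called members were Ifi209 (1.95, SE 0.45), Ifi213, Ifi204 (1.52, SE 0.31), Ifi27l2a, Irf7, Ifi44, Ifit3, Ifit3b, Oasl1, Isg15, Bst2, Oas1a and Oasl2 (0.64, SE 0.17). Irf7 read 1509, 1710 and 1662 contralaterally and 3676, 2741 and 3160 ipsilaterally (0.96, SE 0.25, adjusted p = 0.0103). Ifit3 read 853, 918 and 1083 against 1913, 1424 and 2036 (0.90, SE 0.26). No IFITM, GBP or IRG gene was called. Without contralateral library 1, 5 members were called, and without ipsilateral library 1, 7 were. Some ipsilateral marker sums were higher, with 62 to 137 against 23 to 24 for T and NK cells and 3783 to 7027 against 3062 to 3481 for monocytes and macrophages. Microglial sums were also higher, at 2839 to 3003 against 1367 to 1957. Other sums were lower ipsilaterally without overlap. Neuronal markers summed to 355 to 639 against 3368 to 10665, and pericyte and mural markers to 71345 to 99075 against 102902 to 132595. The part of these cells in the members' values was not tested.

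Between 24 h and 7 days the ipsilateral stroke microvessels themselves differed in many members: 27 of 72 were higher at 7 days (3.72% of all genes) and 4 lower (8.44% of all genes). The higher members were 5 of 8 GBP, 4 of 7 IRG, both Apol9 and 4 of 6 IFIT genes and 12 others. The medians of GBP, IRG and Apol9 genes were 0.94, 0.75 and 1.83, against 1.07, 0.998 and 1.62 between the times in ipsilateral sham microvessels. For IFIT genes the median was 0.91 against 0.505 in sham. No GBP, IRG, Apol9 or IFIT gene was called in the interaction. Ifit1 read 422, 1088 and 596 at 24 h and 1689, 1419 and 1418 at 7 days (1.21, SE 0.23). Ifit3b rose by 1.41 (SE 0.28), Rsad2 by 1.22 (SE 0.27) and Apol9b by 1.84 (SE 0.30, adjusted p = 0.000399). The 4 lower members were Ifi209 (-1.46, SE 0.45), Ifi207 (-1.20, SE 0.40), Ifitm2 (-1.06, SE 0.31) and Irf4 (-1.51, SE 0.50). The count of higher members was 14 without 24 h library 1. The count of lower ones was 0 without 24 h library 1 or 7 days library 3, 1 without 24 h library 2 and 7 without 7 days library 1. Marker sums also differed between the times. Microglial markers went from 1946 to 2310 at 24 h to 2839 to 3003 at 7 days, proliferation markers from 82 to 178 to 249 to 299, and neuronal markers from 1375 to 1818 to 355 to 639, each without overlap. Monocyte and macrophage sums were 6391 to 12745 and 3783 to 7027, and neutrophil sums 2398 to 5524 and 671 to 4511, both with overlap, and the part of these cells was not tested. Median centring of each library would shift this comparison by 0.105 on the log2 scale.

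None of the IRF and STAT genes described here was called between stroke and sham ipsilateral microvessels at either time. Irf7, the main amplifier of type I interferon expression, read 954, 1063 and 1251 in sham and 920, 2451 and 942 in stroke ipsilateral libraries at 24 h (0.25, 95% confidence interval -0.28 to 0.78). At 7 days it read 1885, 2336 and 2372 against 3676, 2741 and 3160 (0.54, 95% confidence interval 0.01 to 1.06, adjusted p = 0.163), all stroke above all sham libraries but not called. Irf9, the DNA-binding partner of the STATs, read 1369, 1359 and 1515 against 1364, 1787 and 1268 at 24 h and 1818, 1992 and 2311 against 2209, 2028 and 1798 at 7 days. Its groups overlapped at both times.

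Stat2, which pairs with IRF9 after type I interferon, read 891, 831 and 857 against 841, 1110 and 792 at 24 h and 1024, 1049 and 1182 against 1017, 1264 and 1065 at 7 days. The sham and stroke libraries overlapped at both times.

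Irf1, an early target of interferon-γ with a GAS in its promoter window, read 1410, 1489 and 1557 against 1489, 1617 and 1568 at 24 h. At 7 days it read 1789, 2005 and 1912 against 1913, 2244 and 1787, with log2 fold changes of 0.07 (SE 0.10) and 0.05 (SE 0.10). Irf2, its antagonist, read 1021, 964 and 1078 against 1079, 1181 and 1052 at 24 h and 1030, 982 and 1252 against 1179, 1241 and 1150 at 7 days. Neither gene was called in either comparison.

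Irf3, which is activated by phosphorylation downstream of nucleic acid sensors, read 977, 926 and 917 against 1308, 1173 and 1085 at 24 h. This difference of 0.33 (SE 0.11, adjusted p = 0.0292) showed no overlap but was below the fold limit. At 7 days Irf3 read 863, 835 and 974 against 902, 1093 and 1112. Irf5, linked to macrophage activation, read 255, 278 and 333 against 384, 299 and 349 at 24 h and 293, 223 and 277 against 286, 271 and 245 at 7 days.

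Irf8, the factor of monocytes and microglia, read 141, 134 and 220 against 375, 281 and 244 at 24 h (0.87, SE 0.42, adjusted p = 0.122). At 7 days it read 154, 69 and 200 against 224, 174 and 163 (0.52, SE 0.42). At 24 h all stroke libraries lay above the sham libraries without a call. Irf4, a lymphocyte factor, had few counts, with 21, 32 and 20 against 15, 8 and 34 at 24 h and 19, 18 and 7 against 4, 10 and 3 at 7 days (-1.26, SE 0.50, adjusted p = 0.0922).

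Beside the members, 96 further genes of the interferon pathway were listed, of which 72 had a mean above 5. Of these 72, 39 were other induced genes and not upstream parts of the pathway. The 21 interferon genes of the list were not analysed here. At 24 h 17 of the 72 were higher and none lower in stroke than in sham ipsilateral microvessels (10.0% and 8.23% of all genes), and at 7 days 1 was higher and none lower (3.27% and 9.95% of all genes). None of the 5 receptor chains was called at either time. Ifnar1 of the type I receptor read 3986, 3693 and 3374 in sham and 2581, 2597 and 2682 in stroke libraries at 24 h. Its log2 fold change of -0.49 (SE 0.13, adjusted p = 0.00892) stayed inside the fold limit. Ifnar2, the other chain, differed by 0.03 (SE 0.12).

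At 7 days Ifnar1 read 4498, 3946 and 3510 against 3204, 3838 and 3358 (-0.20, SE 0.13) and Ifnar2 differed by 0.02 (SE 0.12). The interferon-γ receptor chains Ifngr1 and Ifngr2 differed by 0.28 (SE 0.08) and 0.50 (SE 0.16) at 24 h, both below the fold limit. Il10rb, a chain of the interferon-λ and interleukin-10 receptors, was the 1 pathway gene called lower in stroke than in sham contralateral microvessels at 7 days, with 1804, 2469 and 2200 against 3112, 3263 and 3265 (-0.59, SE 0.09, adjusted p = 0.0177). Ipsilaterally it lay at -0.44 (SE 0.09) at 24 h and -0.46 (SE 0.09) at 7 days. Both ipsilateral values lay inside the fold limit.

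Of the kinases, Jak1 (0.08, SE 0.08), Jak2 (0.01, SE 0.12), Tyk2 (-0.37, SE 0.20) and Tbk1 (0.03, SE 0.09) were not called at 24 h, nor at 7 days. Ikbke, the inducible partner of Tbk1 that phosphorylates IRFs, rose from 18, 20 and 22 to 82, 54 and 58 (1.63, SE 0.33, adjusted p = 0.00116). Among the 14 sensors and adaptors, Zbp1, a sensor of Z-form nucleic acid, rose by 1.74 (SE 0.35), with 28, 48 and 48 against 104, 262 and 92. Tmem173 (STING), the adaptor of cytosolic DNA sensing, rose by 1.67 (SE 0.43), and so did Tlr9 (1.16, SE 0.27), Tlr8 (1.01, SE 0.29) and Myd88 (0.71, SE 0.25). The RNA sensors among the members, Ddx58 (RIG-I) and Ifih1 (MDA5), differed by 0.21 and -0.20 and were not called.

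Of 9 negative regulators with values, Ptpn6 (SHP-1, a phosphatase of blood cells) rose from 86, 169 and 120 to 357, 281 and 377 at 24 h (1.47, SE 0.21, adjusted p = 4.99e-05). It was also the only pathway gene called at 7 days, with 151, 121 and 145 against 283, 305 and 213 (0.93, SE 0.21). Socs1 (0.81, SE 0.26) and Ptpn2 (0.76, SE 0.15) rose at 24 h. Among 39 other induced genes 8 rose at 24 h, namely Fcgr1 (1.68, SE 0.33), Epsti1 (1.11), Slfn2 (0.98), Slfn8 (0.95), Sp110 (0.79), Lgals3bp (0.74), Shisa5 (0.64) and Pnpt1 (0.63). Fcgr1, the high-affinity receptor for immunoglobulin G, marks monocytes and macrophages, of whose 6 listed markers Lyz2, Ccr2 and Ly6c2 were higher in the same libraries without overlap and Mrc1, Cd163 and Ms4a7 overlapped with sham.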

How the data were processed

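RNA sequencing of poly(A)-selected, strand-specific libraries from mouse brain microvessels was analysed in 24 libraries of 8 groups, taken from the labels. Per the submitters' processing notes, reads were aligned with STAR 2.5.2b to mm10 (GRCm38), counted with featureCounts 1.5.1 and normalized with DESeq2 1.6.2, although the study's methods name other versions of STAR and DESeq2. The deposited values are normalized counts that the authors rounded to whole numbers, treated here as a score and not as raw counts, so that no count model was used; the authors left out samples they judged outliers before. The members and lists were chosen with earlier results of these data known. Genes with a mean above 5 (15982 of 17270) were fitted with limma 3.58.1 (R 4.3.3) with a mean-variance trend on log2(value + 1), all 8 groups in one fit, with Benjamini-Hochberg adjustment over all genes. A call required adjusted p under 0.05 and a log2 fold change beyond 0.585. A comparison of 3 libraries with 3 cannot reach an exact permutation p below 0.1 for a single gene, so only the fit across genes was used. Libraries within a group are separate pools of mice, and p-values measure the spread between libraries within groups. The fit treats all 24 libraries as independent, although ipsilateral and contralateral libraries of one number may share mice. Raw depth is unknown, since the values are normalized.

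The named genes were the IRF and STAT members, of which some results are not reported here; for stroke against sham ipsilateral at each time, called members without overlap, up to 8 that rose most and up to 5 that fell most; the most abundant member of each class; members called in the interaction or between control groups; the genes nearest the minimum; and of the pathway list the receptors, the kinases and the genes called. Other members were named after their values were seen. Ipsilateral and contralateral libraries carry the same numbers in their titles, but whether the same mice were pooled under a number is not given in the sources used here. The correlation of their deviations from the group means was 0.145 to 0.411 in sham pairs at 24 h and 0.325 to 0.467 at 7 days, and 0.066 to 0.36 and 0.059 to 0.309 in stroke pairs. Numbers shared between stroke and sham do not pair libraries (mean correlation -0.161 at 24 h and -0.008 at 7 days). In simulated data for the comparison of stroke with sham ipsilateral at 24 h, over 15982 genes, 60% of 100 genes given a log2 change of 1 were called, as were 94% of 100 genes given a change of 2, with 8 false calls. Alternatives changed the pseudocount, the minimum, the scaling, the groups in the fit, the fold limit, the replicate block and single libraries. Shared 50-base words were counted in GENCODE M21 transcripts.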

Additional observations from a re-analysis of the deposited data

Results flagged for a closer look

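The effect of stroke in ipsilateral microvessels differed between 7 days and 24 h in 4 of 72 members by the interaction test of limma (adjusted p under 0.05). The shares of members called lower and higher, 4.17% and 1.39%, lay below those of all genes, 5.68% and 2.43%. The stroke effect was smaller at 7 days by a log2 difference of -2.66 for Ifi209, -1.63 for Ifi27l2a and -1.09 for Ifitm3, and larger by 0.63 for Samhd1. Ifi209 read 92, 101 and 82 normalized counts in stroke libraries at 24 h and 44, 51 and 15 at 7 days, and Ifi27l2a 380, 534 and 448 against 543, 331 and 277. For Ifi27l2a the sham ipsilateral level moved as well, from 67, 86 and 176 at 24 h to 282, 218 and 275 at 7 days. Groups of 3 libraries are too small for a test of single outlying samples.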

How the results depend on the processing

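No result changed its direction under any alternative run. The ipsilateral against contralateral stroke comparison at 24 h gave 11 members higher with a minimum mean of 20, which leaves fewer genes to test, and 4 lower with median centring, 1 with only the groups compared and 5 with the replicate block by hemisphere number. Stroke against sham ipsilateral at 7 days gave 5 higher with quantile normalization and 1 with only the groups compared. In ipsilateral stroke libraries 7 days against 24 h, 17 were higher and 2 lower with only the groups compared, and 2 lower with quantile normalization. The replicate block by number gave 1 member lower in stroke than in sham contralateral microvessels at 7 days. The cause was not tested. In stroke hemispheres, whose lowest correlations by number were 0.066 and 0.059, the block added calls for Irf8 at both times, for Cmpk2, Ifit1bl2 and Ifi207 at 24 h and for Oas2 and Tgtp1 at 7 days. In sham hemispheres, which deviated together by number, it gave no call.
Leaving out each library in turn, the number of members called higher ranged from 9 to 17 for stroke against sham ipsilateral at 24 h and 1 to 4 at 7 days, 8 to 16 and 5 to 18 for ipsilateral against contralateral stroke at 24 h and 7 days, 14 to 33 for ipsilateral stroke at 7 days against 24 h, 0 to 2 for the interaction, and 5 to 15 and 1 to 16 for sham at 7 days against 24 h ipsilaterally and contralaterally. The number called lower ranged from 0 to 5, 0 to 6, 0 to 6, 0 to 7 and 1 to 5 for stroke against sham at 24 h and 7 days, ipsilateral against contralateral stroke at 24 h, ipsilateral stroke 7 days against 24 h and the interaction, and from 0 to 1 for stroke against sham contralateral at 7 days. The pathway list gave 12 to 18 genes higher at 24 h and 1 to 3 at 7 days.
Of the single-gene calls between stroke and sham ipsilateral microvessels, those weakened most often were Isg20 (8 alternatives), Oasl1, Ifi207 and Tgtp2 (5 each), and Isg15, Gbp8, Ifi47 and, at 7 days, Ifitm10 (4 each). Ifitm10 at 24 h was weakened under 3, Ifi206, Samhd1 and Gbp5 under 2 and Ifitm1 and Ifit2 under 1. None of these changed direction.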
